A study of Sus scrofa with 12 samples.

Results

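The RNA contacts examined here are those that an RNA makes on its own chromosome but more than 1 Mb away from its gene. They were measured by GRID-seq, an assay in which RNA and the DNA beside it are joined through a linker in fixed nuclei and then sequenced together, so that each read pair names an RNA and the place on chromatin where it lay. The tissue was longissimus muscle of 2-week-old male piglets of Large White (LW), a commercial lean breed, and Meishan (MS), a Chinese local breed, with 2 GRID-seq libraries per breed and 2 libraries per breed of H3K27ac BL-HiChIP, which maps chromatin loops between active promoters and enhancers. No animal was treated and the breeds differ by their whole genetic background, so no single allele separates them. Whether the replicates of a breed came from separate animals is not clear from the sources used here, so that the spread between them may be technical.

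The unit counted was a pair of 1 RNA and 1 DNA bin of 1 kb in the deposited lists. A pair was called far cis when RNA and bin were on the same chromosome and the bin lay more than 1 Mb from the RNA interval. TTN and 3 RNAs without a symbol (ENSSSCG00000044834, ENSSSCG00000048037 and ENSSSCG00000048856), which are listed over much of the genome, were left out. This left 108651 far-cis pairs of 768870 pairs in all in LW replicate 1, 176105 of 951576 in LW replicate 2, 56121 of 737738 in MS replicate 1 and 99462 of 981142 in MS replicate 2. Just inside and just outside the limit the lists were alike, with 3380, 5442, 1657 and 2867 pairs at 0.9 to 1 Mb and 3068, 4607, 1720 and 2873 pairs at 1 to 1.1 Mb, in the order LW replicates 1 and 2 and MS replicates 1 and 2 that is kept throughout.

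Nascent RNA is tethered to its gene by the polymerase that makes it, so contacts close to the gene are the rule for most transcripts. Chromosomes occupy territories in the nucleus, so a place on the same chromosome is on average nearer in space than one on another chromosome, and some RNAs, such as those of the spliceosome, are spread over many genes. In muscle, many of the longest genes code for parts of the sarcomere, the triad that releases calcium and the factors that control fibre type. Loop anchors marked by H3K27ac are active promoters and enhancers, which are often in contact with one another.

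The RNAs entered had 5835611, 7286883, 4495281 and 6086476 RNA reads in the 4 libraries. Of 9 markers of the muscle fibre 6 were listed in each library, 2 or 3 of 5 fibroblast markers were listed and had 0 far-cis pairs, and none of 4 adipocyte, 4 endothelial, 2 satellite cell or 3 blood markers was listed. The lists hold only RNAs that passed the authors' selection, so an RNA that is missing is not shown to be absent. In bulk tissue, fewer cells of a type and less RNA per cell cannot be told apart.

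Far-cis contacts were a small part of the signal and a large part of the pairs. They made up 41.9, 45.1, 36.7 and 40.4% of all pairs on the RNA's own chromosome, but only 1.99, 2.76, 1.35 and 1.95% of the signal, the background-corrected value that the lists give to each pair. The median signal of a far-cis pair was 4.12, 4.14, 3.72 and 3.91, against 50.9, 50.7, 65.7 and 63.2 for a pair within 1 Mb. Far-cis bins came in runs of neighbouring bins, which will be called patches, with a median length of 28 kb in each library. There were 3004, 4697, 1712 and 2921 patches, so that the number of independent contacts is far below the number of pairs.

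A minority of RNAs made them. Of 567, 677, 515 and 645 RNAs entered, 118, 173, 110 and 157 had a far-cis pair, which was 20.8, 25.6, 21.4 and 24.3%. Over the 4 libraries 245 of 1118 RNAs had one, 61 of them in every library. The first 5 RNAs held 54.2, 46.2, 53.8 and 46.7% of the far-cis pairs, and 5 to 7 RNAs sufficed for 50% of them.

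These RNAs came from long genes. The median length of the RNA interval was 110, 116, 104 and 110 kb for RNAs with far-cis pairs and 9.10, 9.09, 9.75 and 10.5 kb for those without. Per kb of interval, both kinds had about the same number of reads, with medians of 175, 166, 141 and 134 against 171, 164, 154 and 162 reads per kb. In total reads they therefore stood apart, with medians of 24946, 20031, 16588.5 and 17482 against 1786, 1778.5, 1746 and 1975.5. Across RNAs the number of far-cis pairs followed the reads, with Spearman's rho of 0.66, 0.71, 0.65 and 0.69. This is a description, because RNAs are not independent replicates and a pair is more easily detected for an RNA with many reads. Short transcripts named Tx in the lists were 24.7, 26.8, 14.3 and 15.2% of the RNAs without far-cis pairs, and only 1, 1, 1 and 4 of them had any.

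Regulators of transcription and splicing stood first by the mean share of a library's far-cis pairs. MBNL1, a regulator of alternative splicing in muscle (chr13:92491809-92696233 in Sscrofa11.1), had 21386 and 31007 far-cis pairs in LW against 5345 and 8943 in MS, and these carried 59.4, 64.8, 39.3 and 48.1% of all its signal. Both LW libraries lay above both MS libraries. ZBTB16, a zinc finger transcription factor (chr9:41639702-41836742), followed with 15600, 20081, 5370 and 8053 pairs and 46.9, 50.8, 29.1 and 37.1% of its signal. For RORA, a nuclear receptor (chr1:110719191-111477703), 10611, 14386, 6350 and 10382 pairs were listed, which left LW replicate 1 and MS replicate 2 close together. In both MS libraries RORA had more pairs than MBNL1 and ZBTB16, so this order is that of LW. Lower in the order were EYA4, a transcriptional coactivator, with 2138, 3458, 1001 and 2339 pairs, and TEAD1, a DNA-binding partner of such coactivators, with 921, 1140, 825 and 1344 pairs. In both of these the breeds overlapped. ZBTB20, also a zinc finger factor, was listed in LW alone, with 3042 and 4872 pairs.

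**Figure D1:**
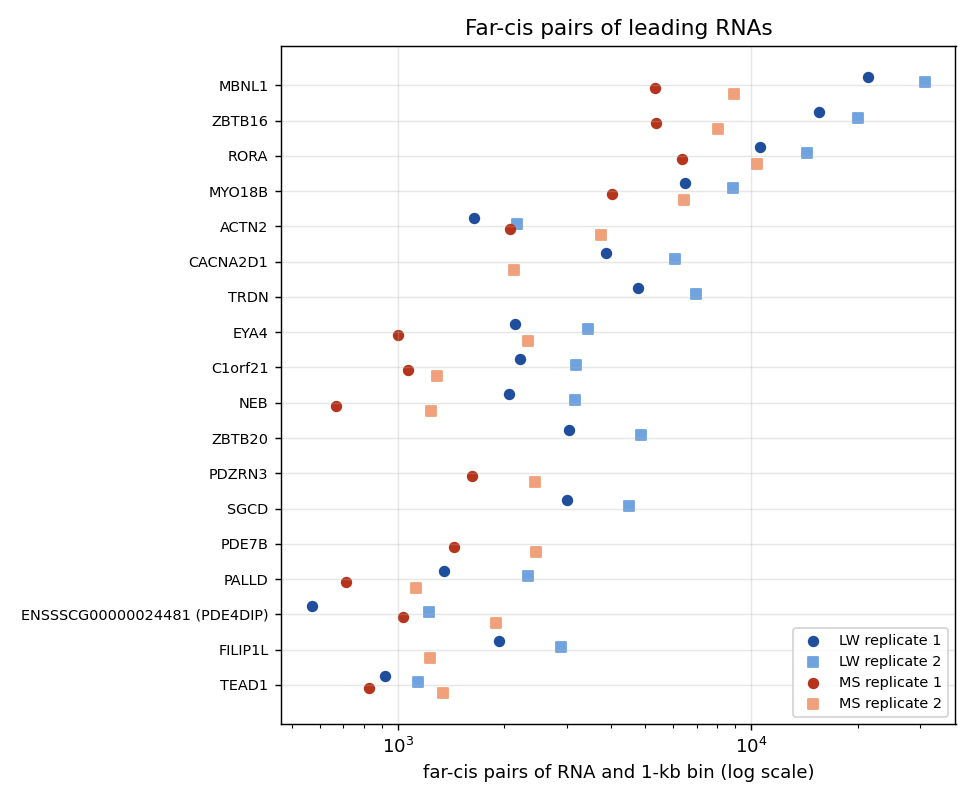
Number of far-cis pairs (x axis, log scale) of 18 of the 20 RNAs with the highest mean share of a library's far-cis pairs (y axis), 1 point per library. RNAs not reported here are not drawn, and no point is drawn where an RNA was not listed. MBNL1 runs from 5345 pairs in MS replicate 1 to 31007 in LW replicate 2, and ACTN2 from 1640 in LW replicate 1 to 3764 in MS replicate 2.

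Genes of the contractile apparatus formed the next group. MYO18B, an unconventional myosin needed in sarcomere assembly (chr14:43451851-43687727), had 6500, 8870, 4042 and 6451 pairs. ACTN2, the alpha-actinin of the Z-disc (chr14:54666624-54742779), had 1640, 2171, 2071 and 3764 pairs, and their share of its signal was higher in MS, at 15.9 and 17.6% in LW against 23.1 and 31.7% in MS. Other members were NEB, the ruler protein of the thin filament, with 2065, 3167, 668 and 1243 pairs, and PALLD, an actin-binding scaffold, with 1353, 2326, 711 and 1123. PDLIM5, a Z-disc adaptor that ranked 32, had 773, 1140, 221 and 285 pairs.

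Several RNAs with many far-cis pairs were listed in 1 breed. TRDN, a protein of the triad, had 4791 and 6951 far-cis pairs in LW and was not listed in MS. SGCD, a sarcoglycan of the muscle membrane, had 3008 and 4493 in LW and was not listed in MS either. CACNA2D1, an accessory subunit of the calcium channel, had 3887 and 6079 in LW and 2129 in MS replicate 2, the only MS library that lists it. The reverse held for PDZRN3, a ubiquitin ligase of the neuromuscular junction, with 1623 and 2436 pairs in MS, and for PDE7B, a phosphodiesterase, with 1435 and 2457 in MS. Because lists were cut by the authors per library, these are differences in listing and not measured zeros. The remaining leading RNAs were C1orf21, FILIP1L and ENSSSCG00000024481 (PDE4DIP), with 570 to 3196 pairs where listed.

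Counted over gene lists, far-cis pairs were found in at least 50% of the listed Z-disc genes and in a smaller share of the listed glycolytic genes. Of the Z-disc and cytoskeletal genes 8 of 15, 10 of 16, 8 of 16 and 8 of 16 listed members had one, among them LDB3 with 324, 839, 293 and 665 pairs and NRAP with 47, 165, 406 and 702. For thick filament and myosin genes the counts were 5 of 8, 6 of 7, 5 of 7 and 5 of 7, led by MYBPC1, a myosin-binding protein, with 1239, 1719, 411 and 860 pairs. Thin filament genes had 4 of 11, 3 of 12, 3 of 12 and 3 of 12, where NEB, TNNT3 and TPM1 recurred. In calcium handling 6 of 9, 6 of 9, 1 of 7 and 4 of 8 had far-cis pairs, and JPH1, which holds the triad together, was the one present in all 4 libraries with 299, 439, 349 and 524.

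Among muscle transcription regulators the counts were 4 of 6, 6 of 8, 4 of 5 and 4 of 6. Genes of glycolysis and glycogen had 3 of 13, 5 of 13, 2 of 11 and 2 of 12. PGM1, a phosphoglucomutase, held most of their pairs in each library, with 288 of 339, 564 of 824, 79 of 102 and 22 of 26. Energy regulators had 0 of 4, 2 of 4, 2 of 6 and 3 of 5, and PPARGC1A, a coactivator of mitochondrial genes, was listed in MS alone with 460 and 644 pairs. Protein turnover genes had 2 of 7, 5 of 7, 3 of 9 and 4 of 9, and membrane and signalling genes 4 of 6, 5 of 7, 2 of 4 and 2 of 4. None of 6 known long noncoding RNAs of the list was in the files. All of these shares stand beside 20.8, 25.6, 21.4 and 24.3% of all RNAs entered, and the lists contain long genes, which was not adjusted for.

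The density of far-cis pairs fell with distance. Per Mb of chromosome that the RNAs entered could reach, there were 131, 156, 93.1 and 112 pairs within 1 Mb, 18.5, 25.2, 10.6 and 13.8 at 1 to 2 Mb, 2.50, 3.48, 1.16 and 1.99 at 5 to 10 Mb, 1.14, 1.57, 0.610 and 0.915 at 20 to 50 Mb, and 0.214, 0.335, 0.217 and 0.324 beyond 100 Mb. On other chromosomes the density was 0.0403, 0.0530, 0.117 and 0.152. Even beyond 100 Mb, pairs on the own chromosome were thus denser than pairs elsewhere in each library. These 2 densities rest on different RNAs. Only RNAs of long chromosomes can reach beyond 100 Mb, and 12, 19, 10 and 14 RNAs had pairs there, while the density elsewhere is over all RNAs entered. Pairs at 20 to 50 Mb were the largest distance class by number, with 25.8, 25.8, 23.6 and 25.4% of the far-cis pairs.

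Most far-cis RNAs kept to their chromosome. Of the RNAs with far-cis pairs, 59, 101, 62 and 95 had no pair at all on another chromosome. For the others the density of far-cis pairs was divided by the density on other chromosomes. This ratio was over 10 for 47, 62, 35 and 45 RNAs, with medians of 179, 197, 79.8 and 117, and at most 10 for 12, 10, 13 and 17 RNAs, with medians of 1.90, 1.36, 1.90 and 2.63. The limit of 10 was chosen after the values were seen. MBNL1 had ratios of 128, 130, 488 and 239, RORA of 107, 154, 87.3 and 68.0 and ACTN2 of 186, 507, 196 and 166. The farthest pairs of MBNL1 lay 116, 116, 110 and 114 Mb from its gene, those of RORA 161, 162, 159 and 163 Mb and those of ZBTB16 97.4, 95.1, 92.0 and 92.8 Mb.

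**Figure D2:**
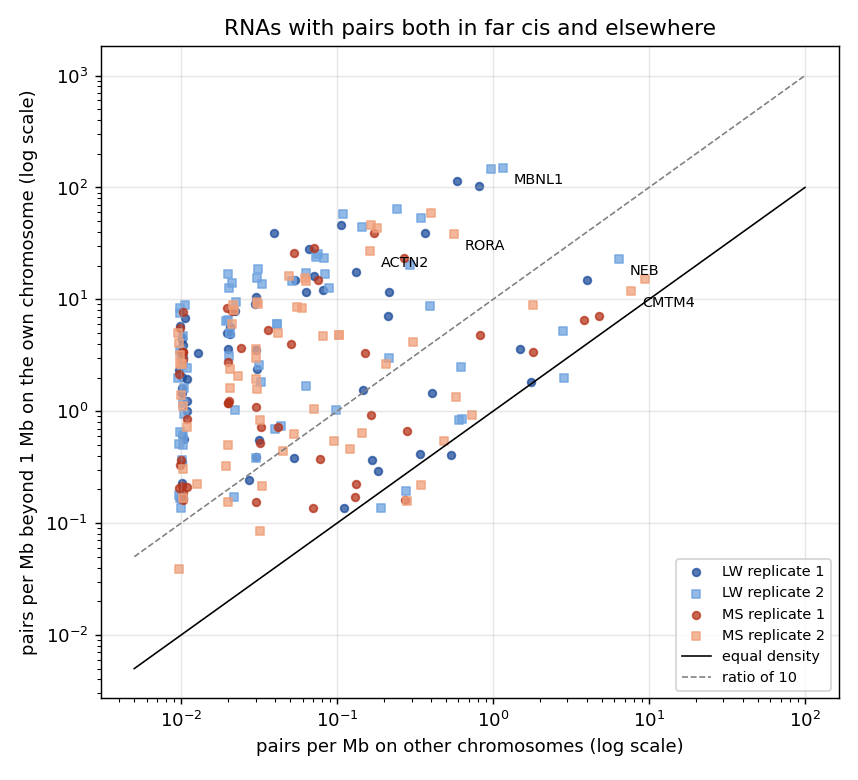
Each point is 1 RNA in 1 library that had pairs both beyond 1 Mb on its own chromosome (y axis, pairs per Mb, log scale) and on other chromosomes (x axis, pairs per Mb, log scale). RNAs not reported here are not drawn. Points on the solid line are equally dense in both, and CMTM4 is just above it, with ratios of 1.21 to 1.70, whereas MBNL1 lies above the dashed line at ratios of 128 to 488.

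A small set was spread over the genome. CMTM4 on chromosome 6 had ratios of 1.21, 1.38, 1.70 and 1.55, the small nuclear RNA U4 on chromosome 14, a part of the spliceosome, had 1.04, 0.696, 1.32 and 0.558, and NEB was intermediate with 3.71, 3.58, 5.86 and 4.97. U4 has near-identical copies in the genome, so its reads may be split or misplaced. A transcript without a symbol on chromosome 6 (chr6:128758718-128760036 in MS replicate 2) was listed under another name in each library and had 68, 144, 1197 and 2572 far-cis pairs with ratios of 0.748, 1.34, 1.48 and 1.62. CMTM4 and this transcript thus had more far-cis pairs in both MS libraries than in both LW libraries, with CMTM4 at 70, 142, 1099 and 2013.

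The RNA classes differed in how density changed with distance. The ratio takes all distances beyond 1 Mb together, so the classes were formed from the same pairs. Their difference is therefore a description and no separate support. Where the ratio was over 10 or no pair lay elsewhere, density fell from 96.7, 102, 54.5 and 61.0 pairs per Mb at 1 to 2 Mb to 0.490, 0.781, 0.235 and 0.399 beyond 100 Mb. Where the ratio was at most 10, with RNAs not reported here left out, density was 6.75, 10.3, 0 and 4.84 pairs per Mb at 1 to 2 Mb, 2.12, 3.38, 2.78 and 3.49 at 20 to 50 Mb and 2.29, 4.53, 1.78 and 3.43 beyond 100 Mb, above the 0.833, 1.61, 1.03 and 1.36 on other chromosomes. Between these distances the density of this class varied without a steady fall, with 2.74, 5.89, 1.84 and 1.55 pairs per Mb at 5 to 10 Mb and 0.653, 2.11, 0.657 and 1.57 at 10 to 20 Mb. The pairs beyond 100 Mb came from 5, 3, 4 and 6 RNAs.

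**Figure D3:**
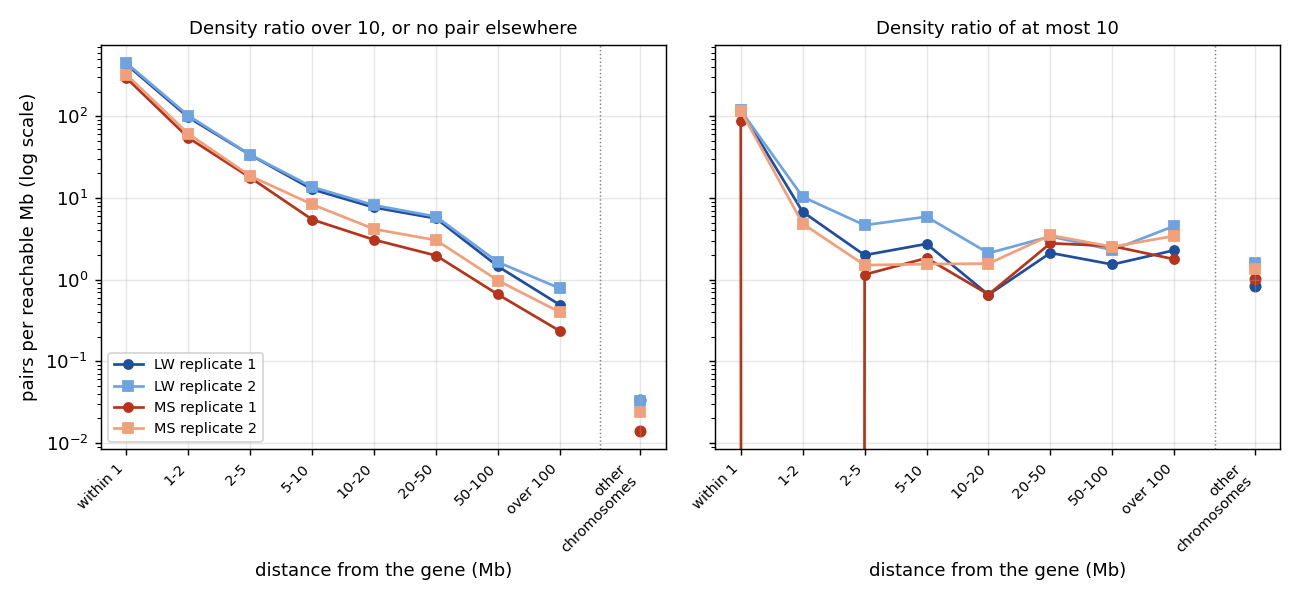
Pairs per reachable Mb (y axis, log scale) by distance from the gene in Mb, with other chromosomes at the right, for far-cis RNAs with a density ratio over 10 or no pair elsewhere (left panel) and of at most 10 (right panel), 1 line per library. The left lines fall from 54.5 to 102 at 1 to 2 Mb to under 1 beyond 100 Mb, and the right lines, drawn without RNAs not reported here, stay between 0.653 and 10.3 beyond 1 Mb except at 1 to 2 Mb in MS replicate 1, where no pair was listed and the line leaves the axis.

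Along the chromosome, the pairs of MBNL1 were not spread evenly. In windows of 5 Mb, of which those beside the gene count only the 4 Mb beyond the limit, the window just before the gene held 578.5, 643, 162.5 and 246 pairs per Mb. The window 30 to 35 Mb after the gene held 333, 486, 170 and 218 pairs per Mb, and the window 20 to 25 Mb before it held 294, 517, 67.4 and 163. Both were below the window just before the gene, except that MS replicate 1 was slightly higher at 30 to 35 Mb. Of 41 such windows on chromosome 13, 23 held pairs of MBNL1 in all 4 libraries. For ZBTB16 the window just after the gene was the fullest in each library, with 3585, 3766, 1743 and 2092 far-cis pairs. The window 30 to 35 Mb before it held 1746, 2026, 476 and 884, and 19 of 27 windows on chromosome 9 held pairs in all 4 libraries.

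**Figure D4:**
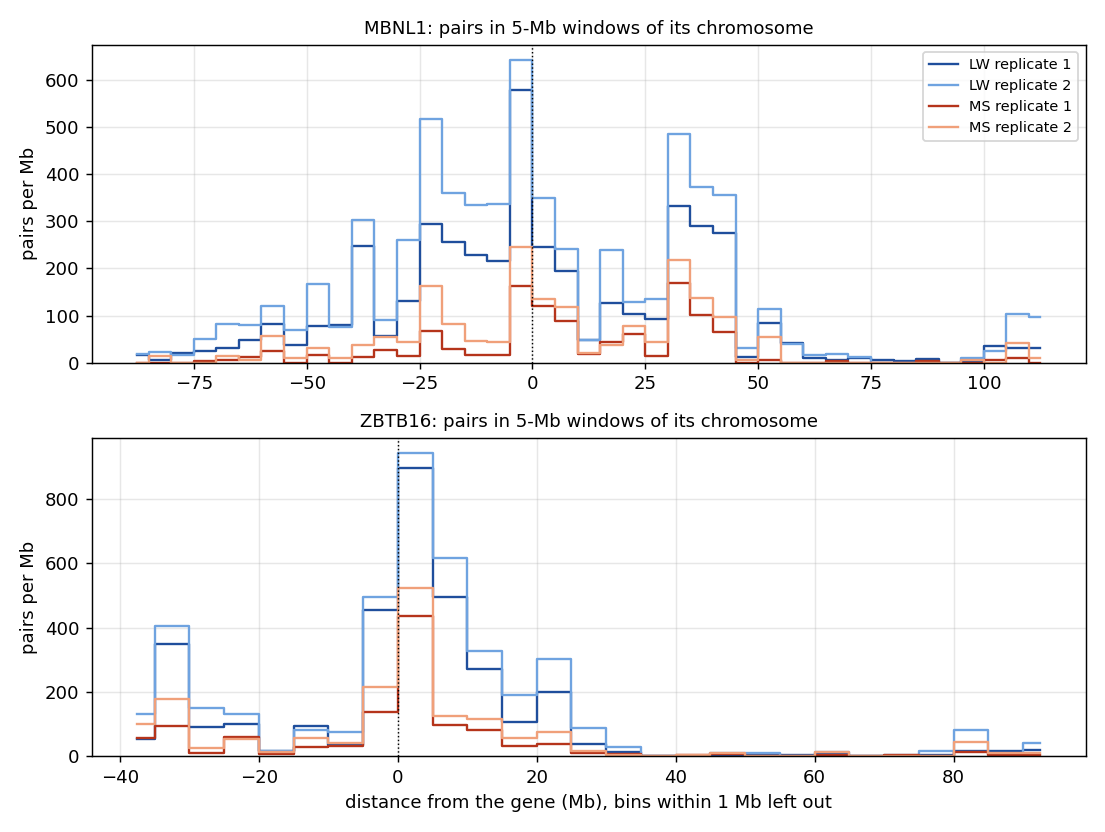
Pairs per Mb (y axis) of MBNL1 and ZBTB16 in 5-Mb windows of their chromosome by distance from the gene in Mb (x axis), with bins within 1 Mb left out, 1 line per library. MBNL1 has high windows just before its gene, 20 to 25 Mb before it and 30 to 35 Mb after it, and ZBTB16 is highest just after its gene, with a lower peak 30 to 35 Mb before it.

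Chromosomes with a leading RNA held most pairs. Chromosome 13, with MBNL1, ZBTB20, PDZRN3 and FILIP1L, held 27.95, 25.7, 30.4 and 27.1% of the far-cis pairs, chromosome 1 held 18.9, 18.2, 18.6 and 19.4%, chromosome 9 held 19.99, 16.9, 11.6 and 11.9% and chromosome 14 held 10.7, 9.63, 15.9 and 15.7%. These shares include RNAs not reported here, so the named RNAs do not account for the whole of a share. MBNL1 alone held 19.7, 17.6, 9.52 and 8.99% of all far-cis pairs. Chromosomes 10 and 18 held none in MS replicate 1.

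Bins that were hit by several RNAs were counted in windows of 1 Mb. Of 2272 windows, 851, 1107, 655 and 891 held a far-cis pair, 332, 561, 223 and 389 held pairs of more than 1 RNA, and 8, 31, 3 and 20 held pairs of 5 or more. The most shared window, chr14:56000001-57000000, holds ARID4B, TOMM20 and IRF2BP2, a corepressor, and was reached by 4, 7, 6 and 6 RNAs. They included ACTN2 and MYO18B in every library and LDB3 and PALLD in 3. The window chr14:140000001-141000000, with BNIP3, a gene of mitophagy, was reached by 4, 5, 5 and 9 RNAs, again including ACTN2 and MYO18B in every library. On chromosome 13 the window 126000001-127000000, which holds only LPP and TPRG1 as coding genes, was reached by 6, 5, 4 and 6 RNAs, among them MBNL1 and ENSSSCG00000051257 each time.

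The other windows of the 10 most shared lay on chromosomes 1, 13 and 14 and were reached by 2 to 7 RNAs. They included chr14:81000001-82000000 with ZMIZ1 and PPIF, chr13:131000001-132000000 with HES1, a target of Notch signalling, and chr1:26000001-27000000 with TNFAIP3. LDB3 and OPN4, whose intervals overlap, have the same values in every library and were counted as 2 RNAs. With overlapping RNAs of 1 strand counted once, the first 3 windows were reached by 4, 6, 5 and 5, by 4, 4, 4 and 8, and by 6, 5, 4 and 5 RNAs. Such overlaps concerned 12, 18, 8 and 10 RNAs with far-cis pairs.

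Far-cis pairs lay on H3K27ac loop anchors more often than the reachable bins did. With the 5-kb anchors of the same breed, 30.9, 31.7, 43.9 and 43.3% of the pairs were on an anchor, while anchors covered 12.2% of the reachable bins in LW and 10.4% in MS. Pairs within 1 Mb had 35.4, 34.1, 40.5 and 39.3% and pairs on other chromosomes 40.1, 41.0, 41.4 and 37.5%. Of whole patches, 68.9, 69.9, 81.8 and 81.2% touched an anchor. A patch spans many bins and touches an anchor more easily than 1 bin does. No share for stretches of the same length was computed, so these values cannot be set against the reachable bins. By distance the share ran from 28.6 to 35.7% in the LW libraries and from 37.1 to 48.5% in the MS libraries. Protein-coding genes held 63.3, 64.4, 62.6 and 62.3% of the far-cis pairs, against about 49% of the reachable bins (49.1, 48.9, 49.0 and 49.1%).

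**Figure D5:**
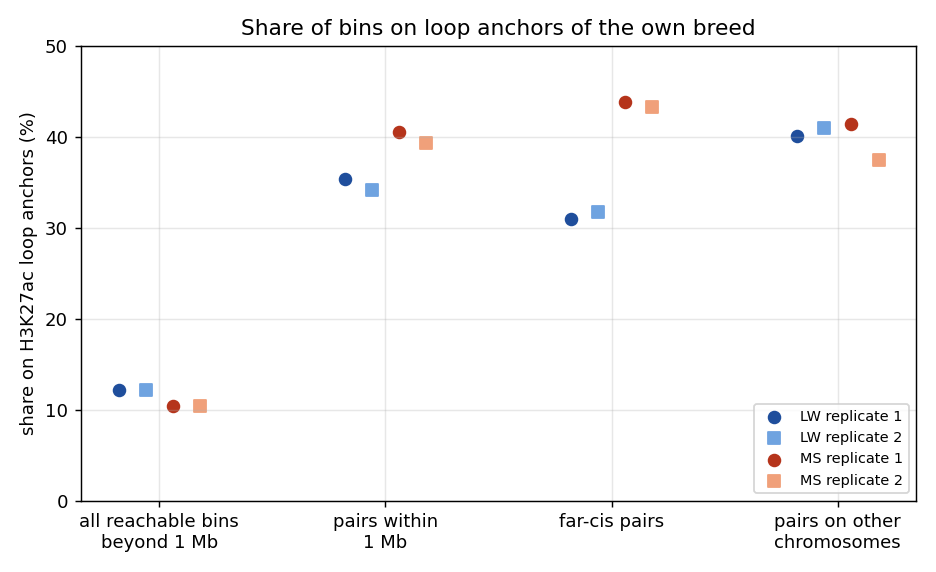
Share of 1-kb bins on H3K27ac loop anchors of the same breed in % (y axis) for the bins that the RNAs could reach beyond 1 Mb and for the pairs within 1 Mb, in far cis and on other chromosomes, 1 point per library. In far cis both MS libraries, at 43.9 and 43.3%, are above both LW libraries, at 30.9 and 31.7%.

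Each of the 20 leading RNAs was above its own reachable bins in every library that lists it, which was 68 of 68 values. MBNL1 had 26.4, 26.3, 42.8 and 42.8% of its far-cis pairs on anchors, where 11.5% of its reachable bins in LW and 9.88% in MS are anchors. ACTN2 had 51.5, 49.3, 61.4 and 59.3%, the highest share among the leading RNAs in each library but MS replicate 2, where NEB had 59.8%. PALLD had 23.7, 29.9, 54.0 and 50.9%. Of the 13 leading RNAs listed in all 4 libraries, both MS values were above both LW values for 11, and the breeds overlapped for 2. Over all far-cis pairs the shares were 30.9, 31.7, 43.9 and 43.3%, so both MS libraries were higher there too. The count was not made over the other RNAs, so the 11 are not a trait of the leading RNAs.

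Loops that join a far-cis bin to the RNA's own gene were also counted. Of the pairs at 1 to 2 Mb, the range in which loops could have been called, 63 of 20512, 65 of 33166, 39 of 10531 and 70 of 17282 were linked to the RNA's gene by a loop, for 6, 6, 3 and 7 RNAs. ENSSSCG00000051257 was among these in every library. The share of reachable bins linked in this way was not computed, so these counts cannot be called high or low. The breeds had 256 and 180 loops longer than 1 Mb of 85136 and 66787. Of 60426 anchors in LW, far-cis pairs reached 6658 and 10387, and of 50516 in MS they reached 4670 and 7642, and no anchor was reached by more than 7 RNAs.

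Between the breeds, each of 4 totals was compared over libraries by a two-sided exact permutation test, for which 2 libraries against 2 cannot give a p below 0.333. The number of far-cis pairs was 142378 ± 47697 (SD, n = 2) in LW and 77792 ± 30647 in MS and did not overlap (exact p = 0.333). Their share of the signal was 2.37 ± 0.54% in LW and 1.65 ± 0.42% in MS, also without overlap (exact p = 0.333). The share of RNAs with a far-cis pair was 23.2 ± 3.4% and 22.9 ± 2.1% (exact p = 1). The share of pairs on anchors was 31.3 ± 0.54% in LW and 43.6 ± 0.40% in MS (exact p = 0.333). The difference was 12.3 percentage points, without overlap. These SDs are of 2 libraries that may be technical replicates, so they need not show the spread between animals. With the LW loops for all libraries the shares were 30.9, 31.7, 48.1 and 47.7%, and for the highest bin of each patch alone they were 37.3, 39.1, 58.3 and 56.9%. With anchors taken only from loops that both BL-HiChIP lists contain they were 10.6, 11.08, 15.7 and 14.9%.

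For most RNAs reads and far-cis pairs were higher in the same breed, but over whole libraries the order differed. LW replicate 1 had fewer reads than MS replicate 2 (5835611 against 6086476) and more far-cis pairs (108651 against 99462). Far-cis pairs per 1000000 reads were 18619, 24167, 12484 and 16342. Of the 61 RNAs with far-cis pairs in all 4 libraries, 52 had more mean reads and more mean far-cis pairs in the same breed. Since 47 of the 61 had more mean reads and 44 more mean far-cis pairs in LW, many would be on the same side anyway. The part of the reads in the breed differences was not tested.

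For single RNAs, the summed far-cis signal was compared by limma on the log2(signal + 1) scale over the 98 RNAs that were listed in all 4 libraries and had far-cis pairs in at least 2. Higher in LW with an adjusted p under 0.05 were 5 RNAs, 5.1% of those tested, and higher in MS were 4, 4.08%. After quantile normalization this split was 1 to 2. At an unadjusted p under 0.05 the shares were 9.18 and 6.12%. These 9 were exactly the 9 tested RNAs with no far-cis pair in either library of 1 breed, and they passed the minimum of 2 libraries only through the breed in which they had one. Among the 85 RNAs with far-cis pairs in at least 3 libraries, limma gave 0 calls, with 6 at an unadjusted p under 0.05. No fold is given against a breed listed at 0.

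Their values were low. CACNA1S, the pore of the calcium channel of the triad, had 29 and 23 far-cis pairs in LW and 0 in MS, from 8471, 9418, 7711 and 9069 reads. CTDSP2, a phosphatase, had 45 and 67 pairs in LW, and AVIL, whose interval overlaps it on the same strand, 45 and 97. ENSSSCG00000001930 (PKM, pyruvate kinase) had 23 and 48 and a U5 small nuclear RNA on chromosome 6 had 23 and 23. In MS, CRY2, a repressor of the circadian clock, had 23 and 104 pairs and 0 in LW, IP6K3, a kinase of inositol phosphates, had 22 and 90, ENSSSCG00000050768 had 44 and 147 and ENSSSCG00000039473 had 22 and 27. With a median patch of 28 kb, these are 1 to 6 patches each. CACNA1S had 1 patch per LW library, at median distances of 1.05 and 12.1 Mb. The U5 RNA had 1 per LW library, at 68.0 and 15.7 Mb. ENSSSCG00000039473 had 1 per MS library, at 36.6 and 4.34 Mb. In these the libraries did not list the same place. Medians were 1.89 and 1.79 Mb for CTDSP2, 1.87 and 1.76 for AVIL and 1.19 and 1.21 for CRY2. They were 51.1 and 15.0 Mb for PKM, 2.20 and 1.59 for IP6K3 and 74.1 and 53.7 for ENSSSCG00000050768. Except for CACNA1S, whose reads overlapped, the breed with the far-cis pairs also had more reads in both libraries.

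None of the 13 leading RNAs in this test passed it, and 1 had an unadjusted p under 0.05 (limma). ZBTB16 had a log2 change of 1.36 ± 0.54 (SE) for LW minus MS (limma, adjusted p = 0.364) and MBNL1 of 1.25 ± 0.57 (limma, adjusted p = 0.416), with MBNL1 reads of 133456, 147039, 61753 and 73975. Over all 98 RNAs the median log2 change was 0.48, and relative to it ZBTB16 stood at 0.89 and MBNL1 at 0.77. Both LW values were above both MS values for 5 of the 13 and below for 3, where over all RNAs tested the shares were 39.8 and 14.3%. CMTM4, a membrane protein and the next RNA higher in MS by p, had a signal of 149, 266, 1617 and 2671 and did not pass (limma, adjusted p = 0.102).

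Over 1-Mb windows, 164 of 1023 were higher in LW, 16%, and 49 higher in MS, 4.79%, with an adjusted p under 0.05 in limma. At an unadjusted p under 0.05 the shares were 21 and 6.26%, and libraries of the breeds did not overlap in 41.8 and 13.6%. After quantile normalization this split was 69 to 48. Of the 213 windows, 204 had no far-cis pair in either library of 1 breed, and among the 676 windows with far-cis pairs in at least 3 libraries limma gave 0 calls, with 49 at an unadjusted p under 0.05. The windows of smallest p in LW, chr15:65000001-66000000 and chr16:68000001-69000000, with signals of 5531 and 5957 and of 3530 and 4350, were reached by 1 RNA each, ITGB6, an integrin subunit, and SGCD, neither of which was listed in MS. In MS they were chr4:17000001-18000000, with 2246 and 3466, and chr4:12000001-13000000, which holds MYC, with 856 and 1266. Both were reached by ZHX2, a transcription repressor listed in MS alone. Of the called windows, 111 were reached by at least 1 RNA listed in a single breed.

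The same places recurred more often within a breed than between breeds. Pairs of an RNA and a 1-Mb window numbered 1360, 2064, 957 and 1522. Those found in both libraries were 38.1% of those found in either for LW and 35.4% for MS, and 19.4 to 25.6% for the 4 pairs of libraries across breeds. Of the RNA and window pairs of LW replicate 1, 69.4% recurred in LW replicate 2, and of those of MS replicate 1, 67.7% recurred in MS replicate 2. Over the RNAs listed in all 4 libraries the values were 42.1 and 43.6% within and 30.7 to 34.4% between breeds. MBNL1 shared 79.5% of its windows between the LW libraries, 56.8% between the MS libraries and 42.8 to 57.4% across. ZBTB16 shared 64.7 and 69.2% within and 54.2 to 67.1% across. No test was made of these shares.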

How the data were processed

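Far-cis contacts were taken from 4 GRID-seq lists and loop anchors from 4 BL-HiChIP lists. Per the study's methods and the labels, the authors mapped GRID-seq reads with Bowtie2 (2.2.5, with SAMtools 1.9 in the processing notes) to Sscrofa11.1, selected chromatin-enriched RNAs and corrected for background. The GRID-seq lists have no header, so the readings rest on the values: the authors deposited a count of reads per RNA and a signal per RNA and 1-kb bin, relative to the RNA's own reads and starting at 0.02. The value the authors deposited per FitHiChIP loop was read as a p-value after adjustment (FDR up to 0.01). The 2 loop lists of a breed were joined.

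Repeated rows were summed. Chromosome ends were the largest bin listed, and a density divides pairs by the Mb that the RNAs could reach. RNA identifiers were named from the gene table (29 of 129) and windows from the RefSeq table of Sscrofa11.1. Computations used Python 3.11.15, numpy 2.4.6, pandas 2.3.3, scipy 1.17.1, R 4.3.3, limma 3.58.1 (lmFit, eBayes, Benjamini-Hochberg, tested on simulated data) and matplotlib 3.10.9. A log2(signal + 1) change understates low RNAs. No library was left out. Some RNAs, and the comparison of decay slopes, are not reported here, and totals over all RNAs include them. Counting intervals were not used, since neighbouring bins are smoothed together.

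The RNAs named were the 20 with the highest mean share of a library's far-cis pairs, with ACTN2, MYO18B and PDLIM5, members of the gene lists with far-cis pairs, the 10 windows with the most RNAs, and per test and direction the 5 RNAs and windows of smallest p without overlap between breeds. Others named in the text were chosen after their values were seen. Members and lists were chosen with earlier results of these data known.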

Additional observations from a re-analysis of the deposited data

How the results depend on the processing

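The direction of the breed difference in far-cis pairs, signal share and anchor share was kept under limits of 2 and 5 Mb, a signal of at least 0.1, RNAs listed in all 4 libraries, and without Tx transcripts and without any 1 library, where the differences ran from 30860 to 98314 pairs, 0.344 to 1.11% of signal and −12.7 to −11.9 percentage points on anchors. Signal shares overlapped between breeds beyond 5 Mb (0.781, 1.09, 0.489 and 0.814%) and for RNAs listed in all 4 libraries (2.47, 3.55, 1.86 and 2.94%). With loops called in both libraries the anchor difference was 4.42 percentage points lower in LW, and with an FDR of at most 0.001 it was 10.3. The difference in the share of RNAs with far-cis pairs, 0.33 percentage points, ran from −2.04 to 2.70 without single libraries and changed direction without LW replicate 2 (−2.04) and without MS replicate 1 (−1.16). The excess of sharing within over between breeds, 14.0 percentage points, was 11.9 in 100-kb windows and 10.5 over RNAs listed in all 4 libraries. Alternatives chosen after seeing the data were those by patches, per read, by the highest bin of a patch, with the LW loops for both breeds, by pairs in place of signal, and windows over RNAs listed in all 4 libraries.

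The limma calls were lost when far-cis pairs in 3 libraries were required. The 9 RNAs became 0 with far-cis pairs in at least 3 libraries, 3 after quantile normalization (which moved the median log2 change from 0.48 to 0.04, and that of the windows from 1.13 to 0.10) and 2 on the logit of the signal share, and ran from 0 to 15 without single libraries, with 0 without LW replicate 1 (14 at an unadjusted p under 0.05), 0 without MS replicate 1 (16 unadjusted) and 15 without MS replicate 2. The 213 windows became 0 with at least 3 libraries, 117 after quantile normalization, 40 in 5-Mb windows, 129 over RNAs listed in all 4 libraries and 0 when these needed 3 libraries, and ran from 0 to 213 without single libraries, with 0 without MS replicate 1 (291 unadjusted) and 0 without MS replicate 2 (388 unadjusted). A breed left with 1 library was assumed to vary like the other. RNAs and windows without any far-cis pair could not be tested.

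The labels give the breeds the same replicate numbers but state no pairing. The replicate differences of the breeds correlated at −0.22 over RNAs and 0.06 over windows, and with the replicate block limma gave 0 calls for RNAs (15 at an unadjusted p under 0.05) and 0 for windows (261 unadjusted). For the 20 RNAs and windows of smallest p, direction was kept in all 187 values under these alternatives. All of them but CMTM4 were at 0 in both libraries of 1 breed. Their direction could therefore hardly change, and its being kept is no support. Of the 187 values, 81 were past the threshold in the main test and not in the alternative.

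The lowest number of reads of an RNA with a listed far-cis pair was 2729 in LW and 770 in MS, and the part of depth in RNAs without far-cis pairs was not tested.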

Other observations

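The lists give the strand of each RNA, so that far-cis pairs can be divided into those after the gene, in the direction of transcription, and those before it. At 1 to 2 Mb, 43.4, 42.2, 41.7 and 46.0% of the pairs lay after the gene, where 50.1, 50.2, 49.9 and 50.1% of the reachable sequence lies. At 2 to 10 Mb 55.9, 54.4, 63.0 and 59.8% of the pairs lay after the gene, beside 49.7, 49.9, 49.9 and 50.0% of the reachable sequence. The pairs are unevenly held: at 1 to 2 Mb 44, 68, 30 and 48 RNAs had most of their pairs after the gene and 40, 72, 36 and 56 before it, so that the RNAs were divided about evenly. At 2 to 10 Mb the counts were 44, 69, 38 and 61 after the gene and 47, 53, 36 and 42 before it. In LW replicate 1 more RNAs were thus on the side with fewer pairs. Without MBNL1 the shares at 1 to 2 Mb were 44.3, 42.8, 41.9 and 46.3%.

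The RNA with the fewest reads among those with far-cis pairs was the transcript Tx.166 of MS replicate 2 on chromosome 3, with 770 reads and 23 pairs in 1 patch at a median distance of 21.6 Mb. Its far-cis signal of 7286 was 8.46% of all its signal.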
